A study of Homo sapiens with 9 samples.

Results

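TXNIP, ARRDC4, MLXIP, DDIT4, SESN1, SESN3, IRS2, INSR, PIK3IP1 and CCNG2 are genes that report on nutrient and insulin signalling. They were picked by name, which gave 10 of the 58735 genes in the deposited table, and were followed in MDA-MB-231, a cell line of mesenchymal character from a human breast cancer. All cells carried the wild-type genotype of the labels, came from this 1 line, and were maintained in DMEM with serum. They received unconditioned medium (No CM), medium from non-senescent donor cells (Cont CM), or medium from donor cells driven into therapy-induced senescence (TIS CM) by the microtubule poison nocodazole, 100 ng/ml for 72 h. The donors were MDA-MB-231 cells too. There were 3 libraries of polyadenylated RNA per group. Exposure to these media lasted 72 h according to the sample labels and 48 h according to the design text. The glucose, amino acids and growth factors left in each medium are not given in the sources used here.

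The genes belong to linked pathways. MLXIP encodes MondoA, a transcription factor that, with its partner MLX, senses phosphorylated glucose and switches on TXNIP and ARRDC4. These are sister alpha-arrestins that lower glucose uptake, and TXNIP also binds thioredoxin. INSR, the insulin receptor, and its adaptor IRS2 lead to PI3-kinase and AKT, and AKT keeps FOXO transcription factors out of the nucleus. When AKT activity is low, FOXO factors raise genes such as IRS2, INSR, SESN3, CCNG2 and PIK3IP1. DDIT4 (REDD1) and the sestrins restrain the growth kinase complex mTORC1, PIK3IP1 restrains PI3-kinase, and CCNG2 encodes cyclin G2, a cyclin linked to cell cycle arrest.

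Promoter sequence was read for the 10 genes, since MondoA and FOXO factors are known to act there. RefSeq windows (GRCh38.p14) matched all 10 genes by symbol, in 14 windows, and the 250 bases before each start were searched on both strands. The motifs were the E-box CACGTG, the carbohydrate response element that MLX and its partners bind, and the FOXO-type motif GTAAACA. The response element was searched as CNCGNGNNNNNCNCGNG, which is loose where N stands for any base and fixed at the other letters. The 3 windows that held a match are shown 5′ to 3′ with the matches in capitals.
TXNIP, chr1:145996580-145996829, minus strand: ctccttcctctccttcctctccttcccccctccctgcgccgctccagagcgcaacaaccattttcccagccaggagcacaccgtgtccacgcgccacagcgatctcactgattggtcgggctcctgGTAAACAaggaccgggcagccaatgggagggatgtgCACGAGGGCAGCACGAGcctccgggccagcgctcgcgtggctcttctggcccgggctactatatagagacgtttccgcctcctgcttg
ARRDC4, chr15:97960453-97960702, plus strand: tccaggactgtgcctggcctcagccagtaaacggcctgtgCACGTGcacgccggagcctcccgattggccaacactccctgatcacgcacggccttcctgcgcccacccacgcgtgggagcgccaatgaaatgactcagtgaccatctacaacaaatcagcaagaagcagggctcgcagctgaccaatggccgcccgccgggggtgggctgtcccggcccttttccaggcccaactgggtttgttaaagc
CCNG2, chr4:77156957-77157206, plus strand: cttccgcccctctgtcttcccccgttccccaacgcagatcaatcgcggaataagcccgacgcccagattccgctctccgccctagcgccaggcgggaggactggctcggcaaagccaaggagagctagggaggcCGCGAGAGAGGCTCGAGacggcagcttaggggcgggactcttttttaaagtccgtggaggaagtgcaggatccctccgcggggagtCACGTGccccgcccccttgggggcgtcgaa

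TXNIP carried the FOXO-type letters 124 to 118 bases before its start and the carbohydrate response element 88 to 72 bases before it. ARRDC4 carried an E-box 210 to 205 bases before its start. CCNG2 carried an E-box 30 to 25 bases before its start and a looser copy of the response element 116 to 100 bases before it. These distances are from RefSeq starts, which can differ from the gene coordinates given below. The CCNG2 window ended at 77157206, while its gene coordinates begin at 77157151. Over all 35116 RefSeq windows of that length, 6.34% held the E-box, 1.87% the response element and 2.98% the FOXO-type letters. These are letter matches and not measured binding, and the other 7 genes held none of the motifs, as searched, in these windows. A response element with other letters at the fixed positions would not have been found.

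Library depth was 32636708 to 39189036 fragments assigned to genes, and levels are given in FPKM, fragment counts scaled by gene length and library size. The 6 markers of this line (vimentin, CD44, AXL, CAV1, PLAUR and EGFR) were all expressed and summed to between 882 and 956 FPKM, and those of endothelium and fibroblasts each summed to at most 0.612 FPKM. A gene was tested where its mean over the 9 libraries reached 0.5 FPKM, which left 13912 genes and 8 of the 10 followed here, SESN3 and PIK3IP1 being too low. Fold changes are on the scale log2(FPKM + 0.5), so for low genes they are smaller than the ratio of the FPKM means. A gene is called at a limma adjusted p under 0.05 over all tested genes. Some libraries stood apart. No CM replicates 2 and 3 had the lowest mitochondrial shares of fragments, 2.17% and 1.85%, against 2.80% to 3.31% in the others. Cont CM replicate 2 had the strongest trend with GC content (r = -0.41 across genes between GC and deviation from the gene mean, against between -0.20 and 0.22 in the others), and Cont CM replicate 1 differed from its fellow replicates more than any other pair did (chi-square per gene of 25.4 and 18.7, against at most 12.6 elsewhere). In bulk RNA, a change in fewer cells and a smaller change in all cells cannot be told apart.

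Some markers moved with Cont CM. EGFR rose from 25.7 ± 0.929 FPKM in No CM to 33.1 ± 1.11 in Cont CM (SD, n = 3, limma adjusted p = 0.000656). It stood at 29.3 ± 0.249 in TIS CM, below Cont CM (limma adjusted p = 0.042), a call kept in 1 of 9 omissions, that of Cont CM replicate 1. The 6 luminal and receptor markers, of which 4 were expressed, summed to between 163 and 177 FPKM in No CM, 123 and 154 in Cont CM and 144 and 148 in TIS CM, and ESR1 and PGR were near 0 in all groups. Of these, the adhesion gene CDH1 fell from 1.17 ± 0.0575 to 0.299 ± 0.0877 FPKM and the keratin gene KRT18 from 152.6 ± 6.74 to 118.7 ± 14.4 (SD, n = 3, limma adjusted p = 0.000584 and 0.0132 for Cont CM relative to No CM). The KRT18 call was lost without No CM replicate 3 (limma adjusted p = 0.0536). CDH1 was also lower in TIS CM, at 0.438 ± 0.0642 FPKM (SD, n = 3, limma adjusted p = 0.0226 relative to No CM), a call lost without any one of the No CM or TIS CM replicates (limma adjusted p from 0.0571 to 0.12). The 4 leucocyte markers summed to between 5.1 and 6.18 FPKM in No CM, 3.96 and 4.13 in Cont CM and 5.03 and 5.71 in TIS CM. Nearly all of that was CD14 and CSF1R, with the defining PTPRC and CD3E near 0. CD14 fell from 4.75 ± 0.627 to 3.38 ± 0.248 FPKM in Cont CM (SD, n = 3, limma adjusted p = 0.0173), the direction in which CDH1, KRT18 and DDIT4 also moved. It was not called without No CM replicates 1 or 3 or Cont CM replicate 2 (limma adjusted p from 0.0543 to 0.069). The part of these marker shifts in the results was not tested.

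**Figure D1:**
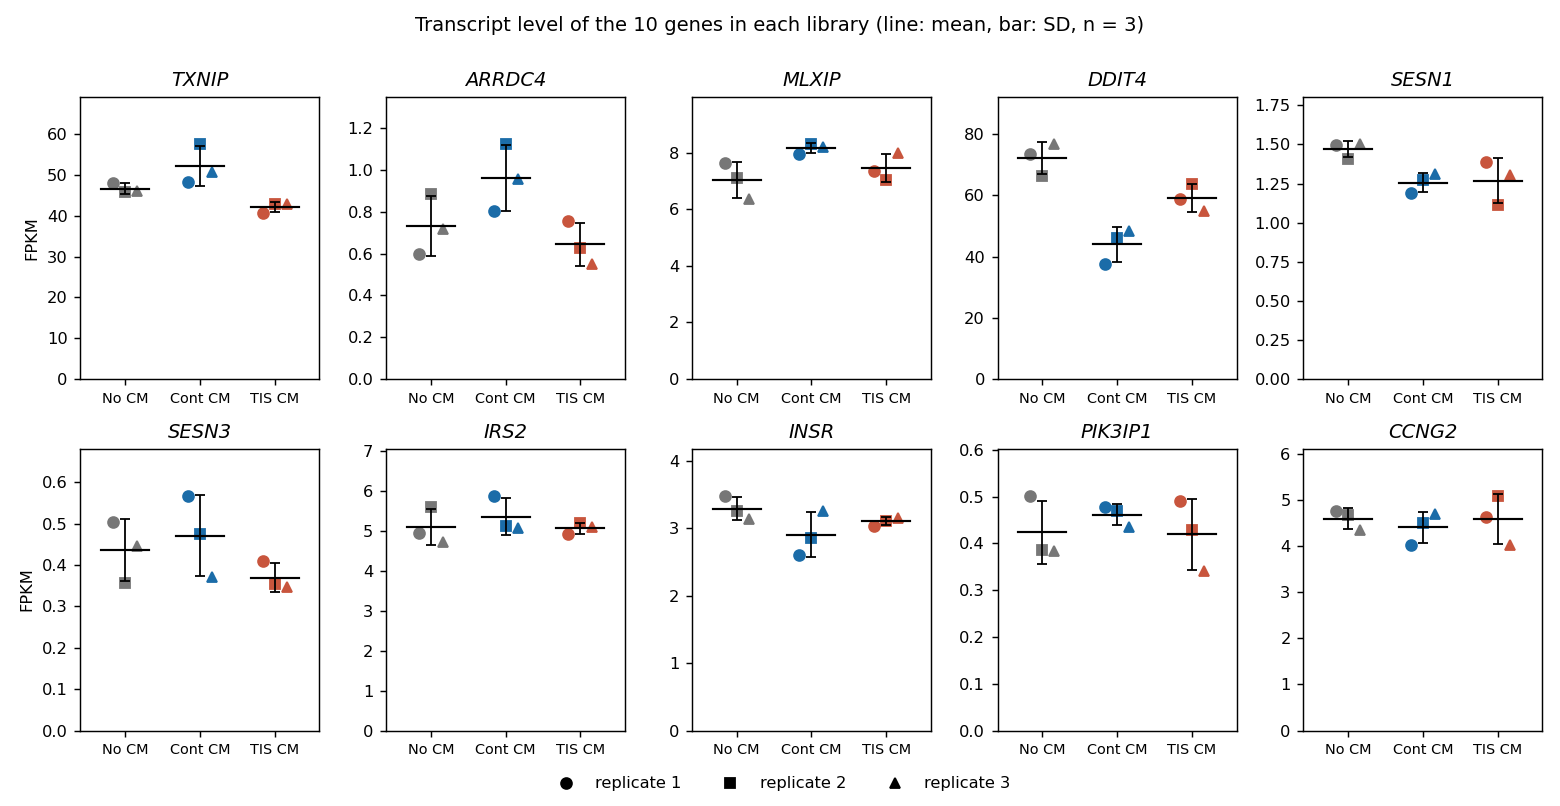
Transcript level in FPKM (vertical axes from 0, 1 scale per gene) of the 10 genes in No CM, Cont CM and TIS CM. Points are libraries, shaped by replicate number, lines are means and bars SD (n = 3). TXNIP and DDIT4 are the genes whose 3 groups do not overlap with each other, with TXNIP lowest in TIS CM and DDIT4 lowest in Cont CM.

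DDIT4 and TXNIP were the followed genes with a called difference. DDIT4 fell 1.64-fold in Cont CM against No CM and was 1.35-fold higher in TIS CM than in Cont CM. TXNIP in TIS CM was 1.23-fold below its level in Cont CM. Both differences of TIS CM from Cont CM sat close to the threshold, while the fall of DDIT4 in Cont CM did not. No other followed gene passed in any comparison in this fit of all 9 libraries, which does not show that the others were unchanged. ARRDC4 in TIS CM against Cont CM had a log2 fold change of -0.35 and did not pass, beside -0.30 for TXNIP. MLXIP in Cont CM against No CM passed in some alternative fits.

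Limma called 1 of the 8 tested genes higher and 1 lower in TIS CM relative to Cont CM, where 4.48% of all tested genes were called (2.9% higher and 1.57% lower). Relative to No CM, Cont CM had 0 of the 8 called higher and 1 lower, where 16.3% of all genes were called (7.77% and 8.56%). For TIS CM relative to No CM limma and voom each called 0 of the 8, and DDIT4 and TXNIP were the 2 with an unadjusted limma p under 0.05 (0.0169 and 0.0425). There, 0.855% of all genes were called (0.403% higher and 0.453% lower).

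The groups did not overlap for 3 of the 8 genes in TIS CM relative to Cont CM (1 higher and 2 lower), against 28.6% of all tested genes (15% and 13.6%). They did not overlap for 4 in Cont CM relative to No CM (2 higher and 2 lower), against 33.3% (16.6% and 16.8%), and for 3 in TIS CM relative to No CM (all lower), against 24.4% (12.7% higher and 11.6% lower). The median log2 fold changes of the 8 were -0.03, 0.01 and -0.09 in these 3 comparisons, beside 0.0035, -0.0006 and 0.003 over all tested genes. The comparisons share libraries, so their values are set side by side and not as separate support.

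DDIT4 (chromosome 10, 72273920 to 72276036, plus strand) encodes the stress-induced mTORC1 inhibitor REDD1. It stood at 73.7, 66.3 and 76.8 FPKM in the No CM libraries, at 37.4, 46.1 and 48.4 in those of Cont CM, and at 58.9, 63.7 and 54.8 in those of TIS CM. Every No CM library was above every TIS CM library, and every TIS CM library above every Cont CM library. The group means were 72.3 ± 5.36, 44 ± 5.79 and 59.1 ± 4.47 FPKM (SD, n = 3). Such complete separation of all 3 groups was met by 6.2% of the tested genes.

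The fall of DDIT4 in Cont CM against No CM had a log2 fold change of -0.72 (SE 0.10, 95% interval -0.94 to -0.49, limma adjusted p = 0.0022). It remained called in 9 of 9 omissions of a single library (limma adjusted p between 0.00163 and 0.0126) and in all 12 other settings tried. In TIS CM against Cont CM the log2 fold change was 0.43 (SE 0.10, 95% interval 0.21 to 0.65, limma adjusted p = 0.0455). That call was lost in 7 of 9 omissions, all but those of Cont CM replicates 1 and 3, with limma adjusted p between 0.0585 and 0.142. The difference ranged from 0.32 without Cont CM replicate 1 to 0.50 without Cont CM replicate 3. TIS CM against No CM gave -0.29 (95% interval -0.51 to -0.06, limma adjusted p = 0.239), which did not pass.

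The gene models of DDIT4 and TXNIP had GC contents of 58.1% and 43.9%, and the Cont CM replicates 2 and 3 had the lowest correlations with GC (r = -0.41 and -0.20). Once the trends with GC and length had been removed from every library, the difference of DDIT4 between Cont CM and No CM was -0.65 on the log2 scale (limma adjusted p = 0.00554), still called. In TIS CM against Cont CM the removal left 0.36 for DDIT4 and -0.26 for TXNIP (limma adjusted p = 0.124 and 0.0577), and neither passed. The antisense gene DDIT4-AS1 overlaps DDIT4, and reads of the 2 cannot be separated if strand was not used. It held at most 224 fragments in a library against between 2542 and 5479 for DDIT4. These counts do not show how many fragments of the shared stretch were missed by either gene.

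TXNIP (chromosome 1, 145992435 to 145996600, minus strand), the arrestin whose promoter is printed above, stood at 48.16, 45.83 and 46.06 FPKM in the No CM libraries. Its Cont CM libraries were at 48.25, 57.58 and 50.77 FPKM and its TIS CM libraries at 40.8, 42.97 and 42.91. TIS CM was below both other groups in every library, and Cont CM was above No CM in every library, though by less than 0.1 FPKM between the nearest pair. Means were 46.7 ± 1.28, 52.2 ± 4.83 and 42.2 ± 1.23 FPKM in No CM, Cont CM and TIS CM (SD, n = 3). Cont CM replicate 2 was the highest of the 9.

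In TIS CM against Cont CM, TXNIP had a log2 fold change of -0.30 (SE 0.06, 95% interval -0.44 to -0.16, limma adjusted p = 0.0325). The call was lost in 8 of 9 single-library omissions, all but that of Cont CM replicate 1, with limma adjusted p between 0.0514 and 0.12. The difference stayed between -0.35 and -0.23 in these fits, and was nearest to 0 without Cont CM replicate 2. Against No CM, TXNIP was at 0.16 in Cont CM (95% interval 0.02 to 0.29, limma adjusted p = 0.114) and at -0.14 in TIS CM (95% interval -0.28 to -0.01, limma adjusted p = 0.346). Neither passed, though without Cont CM replicate 1 the difference of Cont CM from No CM was 0.21 and passed (limma adjusted p = 0.03). As a description, the mean of TXNIP in No CM lay between those in the 2 conditioned media.

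ARRDC4 (chromosome 15, 97960698 to 97973838, plus strand), the sister arrestin, was far less abundant, with between 85 and 164 fragments per library. Its libraries were at 0.598, 0.886 and 0.715 FPKM for No CM, 0.804, 1.12 and 0.958 for Cont CM, and 0.756, 0.625 and 0.551 for TIS CM. Every TIS CM library was below every Cont CM library, and No CM overlapped both. Cont CM had the highest mean and TIS CM the lowest, the order also seen for TXNIP. The log2 fold change of TIS CM against Cont CM was -0.35 (SE 0.13, 95% interval -0.64 to -0.07, limma adjusted p = 0.139), and -0.51 with a pseudocount of 0.1 (limma adjusted p = 0.144). It did not pass in any of the 20 alternative fits.

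MLXIP (chromosome 12, 122078722 to 122147347, plus strand), which encodes MondoA itself, stood at 7.65, 7.11 and 6.37 FPKM in No CM. Cont CM gave 7.95, 8.31 and 8.22 FPKM and TIS CM 7.35, 7.05 and 8. All 3 Cont CM libraries were above all No CM libraries, and TIS CM overlapped both groups. Cont CM against No CM had a log2 fold change of 0.20 (SE 0.07, 95% interval 0.05 to 0.36, limma adjusted p = 0.0761), which did not pass. It did pass without No CM replicate 1, at 0.26 (limma adjusted p = 0.0471), and in 3 of 12 other settings. TIS CM against Cont CM gave -0.12 (95% interval -0.28 to 0.03, limma adjusted p = 0.319).

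The sestrins were low. SESN1 (chromosome 6, 108986437 to 109094819, minus strand) stood at 1.5, 1.41 and 1.5 FPKM without conditioned medium, at 1.19, 1.27 and 1.31 in Cont CM, and at 1.39, 1.11 and 1.3 with TIS CM. Every No CM library was above all 6 libraries in conditioned medium. The differences from No CM were -0.17 in Cont CM (95% interval -0.35 to 0.02, limma adjusted p = 0.201) and -0.16 in TIS CM (95% interval -0.34 to 0.03, limma adjusted p = 0.439), and neither passed. Between the conditioned media SESN1 differed by 0.01 (95% interval -0.17 to 0.19), and its sign turned in 3 of 9 omissions.

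SESN3 (chromosome 11, 95165513 to 95232541, minus strand) fell below the expression minimum, with between 135 and 198 fragments per library. It stood at 0.505, 0.357 and 0.446 FPKM for No CM, 0.568, 0.475 and 0.371 for Cont CM, and 0.409, 0.353 and 0.347 for TIS CM. The 3 groups overlapped. With no expression filter, TIS CM against Cont CM gave a log2 fold change of -0.16 (SE 0.10, limma adjusted p = 0.618).

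Of the insulin pathway genes, INSR (chromosome 19, 7112255 to 7294034, minus strand) stood at 3.48, 3.25 and 3.13 FPKM in No CM and at 2.6, 2.86 and 3.25 in Cont CM. TIS CM gave 3.03, 3.11 and 3.15 FPKM, so Cont CM overlapped both other groups. Cont CM against No CM had a log2 fold change of -0.16 (95% interval -0.33 to 0.01, limma adjusted p = 0.183), and TIS CM against Cont CM 0.09 (95% interval -0.08 to 0.25, limma adjusted p = 0.537). Cont CM replicate 1 was the lowest of the 9 libraries. Without it the difference of Cont CM from No CM was -0.09.

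IRS2 (chromosome 13, 109752698 to 109786568, minus strand), the adaptor downstream of the receptor, ranged from 4.73 to 5.89 FPKM over all 9 libraries. The No CM mean was 5.1 ± 0.458, the Cont CM mean 5.36 ± 0.458 and the TIS CM mean 5.07 ± 0.138 FPKM (SD, n = 3), and all groups overlapped. The intervals of its 3 differences lay between -0.24 and 0.23 on the log2 scale, the outer bounds being those of TIS CM against Cont CM and Cont CM against No CM. PIK3IP1 (chromosome 22, 31281593 to 31292534, minus strand) was below the expression minimum, with between 49 and 69 fragments per library and overlapping groups between 0.34 and 0.502 FPKM.

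CCNG2 (chromosome 4, 77157151 to 77433388, plus strand) stood at 4.75, 4.68 and 4.34 FPKM for No CM, 4.03, 4.49 and 4.69 for Cont CM, and 4.63, 5.09 and 4.02 for TIS CM. The groups overlapped fully. Its differences were 0.05 for TIS CM against Cont CM (95% interval -0.14 to 0.24), -0.06 for Cont CM against No CM (95% interval -0.25 to 0.14) and -0.01 for TIS CM against No CM (95% interval -0.20 to 0.18). CCNG2 thus had no called difference. Whether the motif matches in the printed windows relate to the differences of any gene was not tested.

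**Figure D2:**
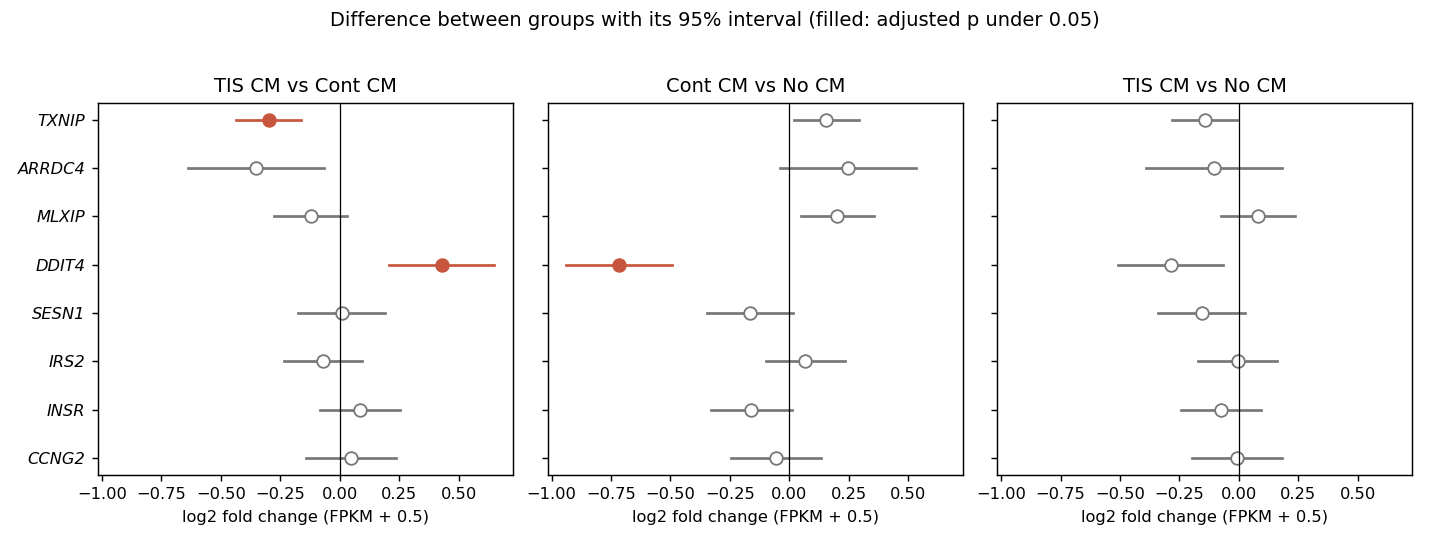
Log2 fold change (horizontal axis, on FPKM + 0.5) of the 8 tested genes in each of the 3 comparisons. Points are limma estimates from 3 libraries a group, lines their 95% intervals, and filled points passed at an adjusted p under 0.05. The passing points are DDIT4 and TXNIP in TIS CM against Cont CM (0.43 and -0.30) and DDIT4 in Cont CM against No CM (-0.72).

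**Figure D3:**
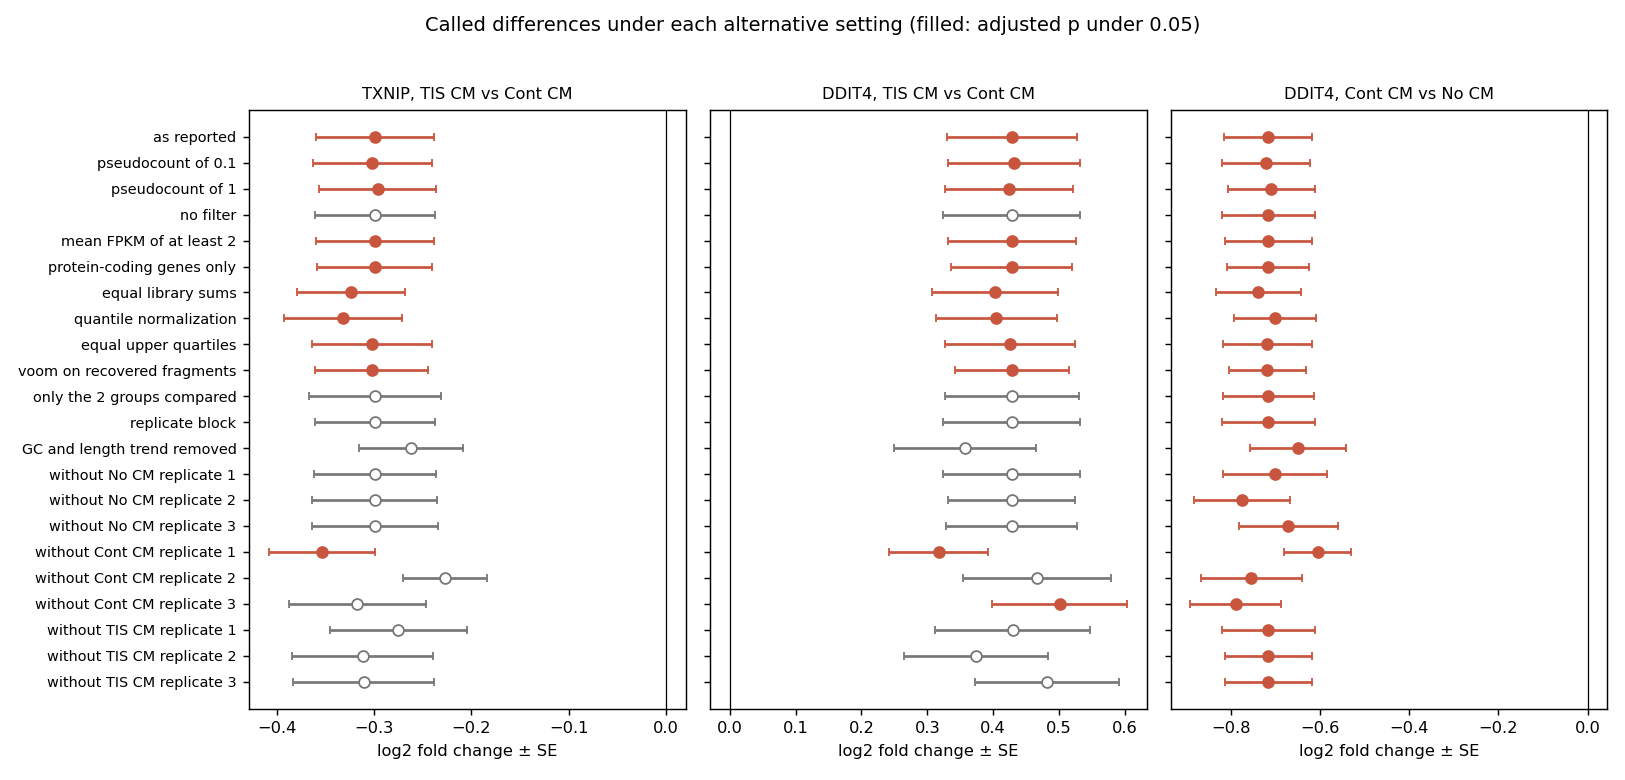
Log2 fold change (horizontal axes, bars are SE) of the 3 called differences under each setting named on the vertical axis, filled where the limma or voom adjusted p was under 0.05. DDIT4 in Cont CM against No CM is filled in every row, while TXNIP and DDIT4 in TIS CM against Cont CM lose the call in most omissions of a library.

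The other genes of the pathway were taken from lists drawn up by known function, with earlier results of these data known. Among 5 tested partners and relatives of MondoA and the arrestins, KLF10, a zinc finger repressor that MondoA can raise, rose 1.34-fold in Cont CM against No CM, from 11.5 ± 0.948 to 15.5 ± 0.596 FPKM (SD, n = 3, limma adjusted p = 0.00698). It stood at 12.6 ± 1.17 FPKM in TIS CM. KLF10 was the 1 gene of the 5 called in Cont CM against No CM, beside 16.3% called over all tested genes. MLX, the partner of MondoA, ARRDC1, ARRDC2 and ARRDC3 did not pass in any comparison. ARRDC3, an arrestin like TXNIP, had means of 5.57, 5.32 and 4.62 FPKM in No CM, Cont CM and TIS CM. ARRDC1 had means of 9.03, 7.81 and 8.45 FPKM and ARRDC2 of 4.70, 4.31 and 4.41 in the same order, both lowest in Cont CM. MLXIPL, which encodes the related factor ChREBP, was below the minimum, and ARRDC5 was listed at 0.

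The 11 genes of the thioredoxin system and of glucose uptake were all tested. Of these, 1 rose, 2 fell and 8 did not pass in Cont CM against No CM, beside 16.3% called over all tested genes. For TIS CM against Cont CM, 1 was higher and 10 did not pass, beside 4.48%. In Cont CM against No CM, HK1, a hexokinase, rose 1.15-fold, and TXN2 and PRDX3, the mitochondrial thioredoxin and peroxiredoxin, fell 1.14-fold and 1.11-fold (limma adjusted p = 0.0172, 0.015 and 0.0278). TXN2 was 1.14-fold higher in TIS CM than in Cont CM (limma adjusted p = 0.0418), at 26.9 ± 0.726 against 23.6 ± 0.144 FPKM (SD, n = 3). TXN, the cytosolic thioredoxin that TXNIP binds, did not pass, with means of 302.7, 307.8 and 317 FPKM in No CM, Cont CM and TIS CM. SLC2A1, the glucose transporter that TXNIP and ARRDC4 remove from the surface, had means of 103.2, 101.5 and 102.5 FPKM and did not pass either.

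Among the 4 FOXO factors, FOXO6 fell 2.03-fold in Cont CM against No CM, with 1.23 ± 0.239 FPKM in place of 3 ± 0.35 (SD, n = 3), a log2 difference of -1.02 (SE 0.12; adjusted p = 0.00138 by limma). In TIS CM it stood at 1.86 ± 0.237 FPKM, between the other groups, and the differences from Cont CM and from No CM did not pass (limma adjusted p = 0.0715 and 0.0912). FOXO3, the most abundant of the 4, had means of 5.92, 6.73 and 5.71 FPKM in No CM, Cont CM and TIS CM and did not pass. FOXO1 and FOXO4 did not pass either. FOXO6 was thus the 1 gene of the 4 called in Cont CM against No CM, beside 16.3% called over all tested genes.

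Of 24 other FOXO targets, 4 rose, 4 fell and 16 did not pass in Cont CM against No CM, a comparison in which 16.3% of all tested genes were called (7.77% higher and 8.56% lower). PDK4, a kinase that turns cells from glucose to fat oxidation, rose 1.72-fold, from 1.85 ± 0.291 to 3.56 ± 0.652 FPKM (SD, n = 3, limma adjusted p = 0.00603). GADD45A, a DNA damage response gene, and MXI1, an antagonist of MYC, rose 1.32-fold and 1.27-fold (limma adjusted p = 0.0137 and 0.0027). CDKN1B, the cell cycle inhibitor p27, fell 1.24-fold (limma adjusted p = 0.00196), and the death genes TNFSF10 and BBC3 fell 1.32-fold and 1.26-fold (limma adjusted p = 0.032 and 0.0453). In TIS CM against Cont CM, BBC3 was 1.37-fold higher and MXI1 1.2-fold lower (limma adjusted p = 0.0394 and 0.0281), and 22 did not pass, beside 4.48% called over all genes. None passed in TIS CM against No CM. The list's median was 0.07 in Cont CM against No CM and -0.08 in TIS CM against Cont CM; calls went in both directions in each.

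Of 32 tested genes of nutrient sensing upstream of mTORC1, 2 rose, 4 fell and 26 did not pass in Cont CM against No CM. With 16.3% of all tested genes called there, 6 of 32 is near the background. DDIT4L, the relative of DDIT4, rose where DDIT4 fell, from 0.399 to 0.828 FPKM, and the arginine sensor family gene CASTOR2 rose 1.33-fold (limma adjusted p = 0.0148 and 0.0111). The fold of DDIT4L was 1.48 with 0.5 FPKM added to each value, which is less than the ratio of its means. LAMTOR4 and LAMTOR1, which anchor mTORC1 activators to the lysosome, fell 1.29-fold and 1.16-fold, and the mTOR partner MLST8 1.14-fold (limma adjusted p = 0.0041, 0.0297 and 0.0236). In TIS CM against Cont CM, LAMTOR4 and LAMTOR2 were higher by 1.23-fold and 1.2-fold (limma adjusted p = 0.0296 and 0.0325), and 30 did not pass, where 4.48% of all genes were called. SESN2, the third sestrin, did not pass, with means of 3.37, 3.81 and 4.05 FPKM in No CM, Cont CM and TIS CM.

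Of 21 tested insulin and PI3-kinase genes, 4 rose, 1 fell and 16 did not pass in Cont CM against No CM, beside 16.3% called over all tested genes. PIK3CD, a catalytic subunit of PI3-kinase, and GSK3B, a kinase inhibited by AKT, rose 1.18-fold and 1.17-fold (limma adjusted p = 0.0351 and 0.0392). The adaptor IRS1 fell 1.11-fold (limma adjusted p = 0.0245). Relative to Cont CM, TIS CM had 0 genes of this list called higher and 1 lower, beside 4.48% called over all genes.

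Single libraries decided many of these calls. The lists had 5, 11, 4, 24, 32 and 21 tested genes. In Cont CM against No CM they held 24 called genes, beside 16.3% called over all tested genes. Of the 24, 10 were called in all 9 omissions of a library, among them BTG1, CASTOR2, CDKN1B, FOXO6, KLF10, LAMTOR4, MXI1, PDK4 and TXN2. DDIT4L was lost without Cont CM replicate 2 (limma adjusted p = 0.0502), GADD45A without No CM replicate 3 (limma adjusted p = 0.0555), and HK1 without No CM replicates 1 or 3. IRS1 and PRDX3 were each lost without No CM replicates 1 or 3 or Cont CM replicates 2 or 3, LAMTOR1 without No CM replicates 2 or 3 or Cont CM replicates 2 or 3, and MLST8 without No CM replicates 2 or 3 or Cont CM replicate 3 (limma adjusted p up to 0.107 over these 4). TNFSF10 was lost without No CM replicates 1 or 3 or any Cont CM replicate (limma adjusted p up to 0.103). PIK3CD was lost without any No CM replicate, Cont CM replicates 2 or 3 or TIS CM replicate 1 (limma adjusted p up to 0.104). GSK3B was lost in 7 of 9 omissions, all but No CM replicate 1 and Cont CM replicate 1, and BBC3 in 8, all but No CM replicate 2 (limma adjusted p up to 0.135 and 0.15). In TIS CM against Cont CM 6 list genes were called, beside 4.48% called over all tested genes. None of the 6 was called without Cont CM replicate 2 or without any one of the TIS CM replicates. Other settings also removed calls. Of the 6, all were lost in the fit of 2 groups, 5 with no filter and 4 without the GC and length trends. Of the 24, 11 were lost in the fit of 2 groups, 9 with no filter and 4 without the GC and length trends. No sign changed.

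**Figure D4:**
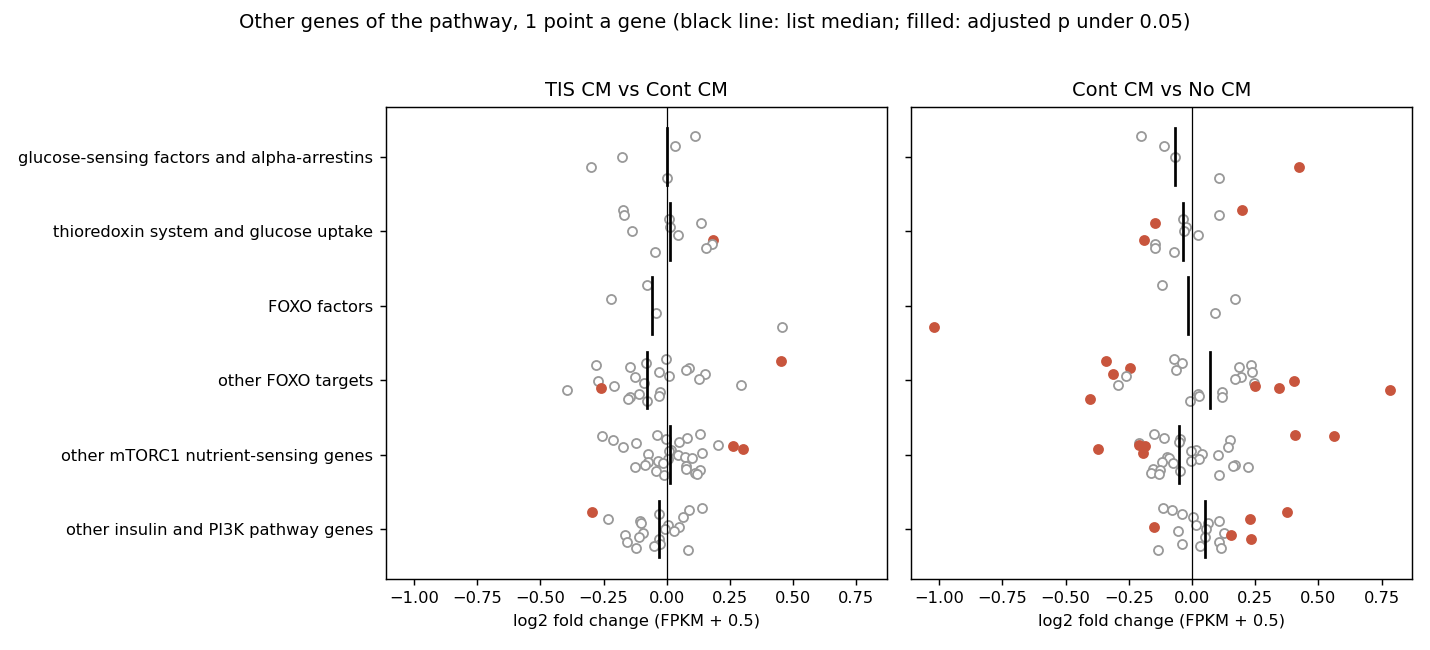
Log2 fold change (horizontal axis) of the tested genes in the 6 pathway lists named on the vertical axis, for TIS CM against Cont CM and for Cont CM against No CM. Each point is a gene, filled where the limma adjusted p was under 0.05, and black lines are list medians. FOXO6 at -1.02 and PDK4 at 0.78, both in Cont CM against No CM, lie farthest from 0.

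Genes whose levels followed those of the followed genes most closely over the 9 libraries were sought among 6880 abundant protein-coding genes (a mean of at least 5 FPKM). They are given as a description, since libraries of a group share their medium and such a search always finds high values. For DDIT4 they were PSRC1, VWA1, PSMD10, HLA-E and KRT19, with Pearson r between 0.987 and 0.997. VWA1, a matrix protein gene, stood at 9.1, 5.51 and 7.26 FPKM in No CM, Cont CM and TIS CM, and the keratin gene KRT19 at 137.4, 107.4 and 122.3. For TXNIP they were IQGAP1, RIOK3, CLIP4, RIPK1 and SPAG9, with r between 0.962 and 0.972, and the group means of IQGAP1, a scaffold protein gene, were 41.3, 43.1 and 40.03 FPKM.

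For ARRDC4 the closest were TRAPPC6B, MTMR2, WASF1, VPS26A and CTR9, with r between 0.909 and 0.965. For INSR they were NFIX, COPZ1, GALNT2, ACIN1 and CGGBP1, with r between 0.922 and 0.952. GALNT2, a glycosyltransferase gene, had group means of 40.7, 32.6 and 37.2 FPKM in No CM, Cont CM and TIS CM.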

How the data were processed

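RNA from 9 libraries was sequenced after poly-T selection, per the labels' protocols. Tools named in the submitters' processing notes are fastp, HISAT2 (2.0.5), featureCounts (1.5.0-p3) and DESeq2 (1.20.0), with build hg38 and no roles. The authors deposited FPKM for each gene with its length and coordinates, and all identifiers were found in GENCODE 29. Multiplying FPKM by length and dividing by a constant estimated for each library gave integers, taken as the fragments, in 100% of cases (tolerance 0.01). Use of strand in counting: not given in the sources used here.

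Limma 3.58.1 (R 4.3.3) with an intensity trend was fitted to log2(FPKM + 0.5) of all 9 libraries, for the 13912 genes with a mean of at least 0.5 FPKM, with Benjamini-Hochberg adjustment. The fit was also run on simulated data without the trends seen in these libraries, from which nothing is concluded here. The pseudocount understates changes of low genes. The labels do not call the replicates separate cultures, so p-values measure only how these libraries vary, which may be technical variation. Alternatives varied the pseudocount, filter, scaling and model (voom on the fragments, 2-group fits, a block for replicate number), omitted single libraries, or took out GC and length trends. The last was added after seeing the data.

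The followed genes and all lists were chosen with earlier results of these data known. Named genes are all 10 followed, up to 3 called genes per list and direction by size of change, the 5 genes most alike TXNIP, ARRDC4, DDIT4 and INSR, and some uncalled pathway genes chosen after their values were seen. Some named-gene results of the lists are not reported here. Figures were drawn with matplotlib 3.10.9.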

Additional observations from a re-analysis of the deposited data

How the results depend on the processing

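The fall of DDIT4 in Cont CM relative to No CM was called under every alternative, while the calls of DDIT4 and TXNIP in TIS CM relative to Cont CM were lost under many. The cause was not tested. For TIS CM relative to Cont CM, limma's 404 higher and 219 lower calls over all genes became 128 and 79 with no filter, 617 and 378 over protein-coding genes, 284 and 395 with equal library sums (41.8% higher instead of 64.8%), 310 and 273 with quantile normalization (53.2% higher), 625 and 460 with voom, 23 and 10 in the fit of 2 groups, and 98 and 61 without the GC and length trends. Of the followed genes, 0 were called higher and 0 lower with no filter, in the fit of 2 groups, with the replicate block and without the GC and length trends. Omitting single libraries gave 7 to 675 higher and 4 to 409 lower, and 0 to 1 followed gene in each direction. For Cont CM relative to No CM, 1081 and 1191 became 792 lower with no filter and 573 and 669 in the fit of 2 groups, with 492 to 1332 higher and 583 to 1438 lower over the omissions. There 1 followed gene, MLXIP, was called higher over protein-coding genes, with voom and without the GC and length trends, and 0 to 1 over the omissions. For TIS CM relative to No CM, 56 and 63 became 23 and 23 with no filter, 94 and 116 over protein-coding genes, 28 and 106 with equal library sums (20.9% higher instead of 47.1%), 105 and 140 with voom and 176 and 155 in the fit of 2 groups, and 6 to 195 and 3 to 170 over the omissions. Signs turned for uncalled differences near 0. In TIS CM relative to Cont CM these were SESN1, -0.00998 with equal library sums and -0.042 to 0.073 over the omissions, and CCNG2, -0.024 to 0.13. In Cont CM relative to No CM it was CCNG2, -0.10 to 0.000147. In TIS CM relative to No CM they were IRS2, 0.0135 without the GC and length trends and -0.052 to 0.060 over the omissions, and CCNG2, -0.080 to 0.074. Libraries with the same replicate number did not deviate together (r between -0.19 and 0.08, and 2 of 9 libraries correlated best with their own number). This gave no sign that the numbers pair libraries, but 3 libraries a group are too few to exclude it. With the replicate block the calls were 95 higher and 31 lower in TIS CM relative to Cont CM, 672 and 789 in Cont CM relative to No CM, and 2 and 2 in TIS CM relative to No CM. The block also removed 5 of the 6 pathway list calls in TIS CM relative to Cont CM and 11 of the 24 in Cont CM relative to No CM. SESN3, PIK3IP1 and ARRDC4 rest on few fragments, which limits their precision.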
